A study of Homo sapiens with 4 samples.

Results

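The HOX cluster genes are the 39 protein-coding genes named HOXA, HOXB, HOXC or HOXD with a number, chosen by symbol and biotype from the 60676 genes of the deposited tables, of which 19968 are protein-coding. They were measured in U2OS cells, an established human osteosarcoma (bone tumour) line grown in DMEM with fetal bovine serum. The assay, nRIP-seq, is RNA immunoprecipitation from native nuclei: an antibody is added to an uncrosslinked nuclear lysate, and the RNA that comes down with it is sequenced. The 4 libraries were an LC3B pull-down, made with an antibody against LC3B, an IgG pull-down, made with non-specific IgG as the negative control, the input of the LC3B pull-down and the input of the IgG pull-down. All 4 came from the same line with no genetic change or drug named in the labels, and each group holds 1 library, so the differences below have no replicate check and carry no p-values. The study set LC3B, a ubiquitin-like protein of autophagosome membranes that is also found in the nucleus, against IgG to find which nuclear RNAs come down with it.

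HOX proteins are homeodomain transcription factors that give cells of the embryo their position along the body axis. In mammals the genes lie in 4 clusters, HOXA on chromosome 7, HOXB on 17, HOXC on 12 and HOXD on 2, and the number in a gene's name is its paralog group, which is its place in the cluster. Low numbers act towards the head (anterior) and high numbers towards the tail and the far limb (posterior), and adult cells usually keep a HOX pattern that reflects where in the body they came from. Below, paralog groups 1 to 3 are called anterior, 4 to 8 central and 9 to 13 posterior.

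Sequence is shown first for 2 genes that were read in the inputs but not with IgG, and for 2 genes without a read in any library. HOXA11 and HOXA13 were read in all libraries but the IgG pull-down, where they had 0 reads, while HOXB1 and HOXD4 had 0 reads in all 4 libraries. Each run is the 250 bases before the gene's start on the gene's own strand, from RefSeq (GRCh38.p14), 5′ to 3′, with every CG dinucleotide in capitals.
HOXA11 (chr7:27185233-27185482, minus strand): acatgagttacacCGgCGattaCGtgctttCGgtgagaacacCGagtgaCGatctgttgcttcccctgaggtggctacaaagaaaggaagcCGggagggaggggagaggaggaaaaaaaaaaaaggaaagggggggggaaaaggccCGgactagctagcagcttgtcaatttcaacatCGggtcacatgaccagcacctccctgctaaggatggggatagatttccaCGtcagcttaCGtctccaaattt
HOXA13 (chr7:27200092-27200341, minus strand): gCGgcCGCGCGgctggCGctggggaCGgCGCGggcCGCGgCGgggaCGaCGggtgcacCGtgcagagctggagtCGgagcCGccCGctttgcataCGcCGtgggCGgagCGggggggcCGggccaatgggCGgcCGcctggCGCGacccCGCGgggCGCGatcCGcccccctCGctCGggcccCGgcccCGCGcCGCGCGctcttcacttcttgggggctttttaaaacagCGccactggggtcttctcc
HOXB1 (chr17:48531012-48531261, minus strand): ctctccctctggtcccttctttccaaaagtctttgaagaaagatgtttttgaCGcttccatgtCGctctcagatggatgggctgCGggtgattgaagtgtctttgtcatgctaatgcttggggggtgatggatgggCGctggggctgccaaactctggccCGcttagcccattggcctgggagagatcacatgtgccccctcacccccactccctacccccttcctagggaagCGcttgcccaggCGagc
HOXD4 (chr2:176151300-176151549, plus strand): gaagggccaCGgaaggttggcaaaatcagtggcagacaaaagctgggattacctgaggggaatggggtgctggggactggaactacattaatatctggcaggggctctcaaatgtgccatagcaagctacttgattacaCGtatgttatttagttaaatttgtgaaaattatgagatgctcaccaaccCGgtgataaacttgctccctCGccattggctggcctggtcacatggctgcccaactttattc
CG dinucleotides are the main sites of methylation in human DNA, and they are dense in many HOX promoters. The HOXA11 stretch holds 11 CG and the HOXA13 stretch 40, against 7 for HOXB1 and 4 for HOXD4. HOXC5, also at 0 reads in all 4 libraries, has a stretch with 14 CG, more than that of HOXA11. It shares this stretch with HOXC4 and is not among the 16 genes counted below. The median over all 35116 RefSeq promoter stretches of this length was 11, and 2.16% of them hold at least 40. RefSeq promoters were matched to 20 of the 39 HOX genes, and 16 of these had 1 stretch of their own. In the 10 of them that averaged at least 1 CPM in the inputs (counts per 1000000 reads outside mitochondrial genes) the count ran from 11 to 40 with a median of 24.5. In the 6 below that level it ran from 4 to 27 with a median of 12. The ranges overlap, and the counts describe the letters only.

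The clusters also encode microRNAs, short RNAs that pair with target mRNAs through their seed, bases 2 to 8. The genes of 6 of them lie inside HOX genes in the tables: MIR10A in HOXB3, MIR10B in HOXD3, MIR196A1 in HOXB7, MIR196A2 in HOXC6, MIR196B in HOXA9 and MIR615 where HOXC4 and HOXC5 overlap. All 6 had 0 reads in all 4 libraries, which were made from polyadenylated RNA. The mature 5p sequences of the miR-196 and miR-10 families in the RefSeq set used are shown with the seed in capitals. That set held none for miR-10b, and miR-615 was not looked up. The miR-196 host genes HOXB7, HOXC6 and HOXA9 are among the HOX genes with the most reads here.
hsa-miR-196a-5p: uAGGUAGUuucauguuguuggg
hsa-miR-196b-5p: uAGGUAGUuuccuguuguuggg
hsa-miR-10a-5p: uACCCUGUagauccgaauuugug
The miR-196 pair shares the seed AGGUAGU, and miR-10a has the seed ACCCUGU.

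Outside mitochondrial genes the LC3B pull-down held 10375786 reads, the IgG pull-down 9824400, the LC3B input 8542486 and the IgG input 8404123. Mitochondrial genes took 0.774% and 1.76% of the reads in the LC3B and IgG pull-downs, against 20.8% and 22.8% in their inputs, so all shares below are of the reads outside them. The IgG pull-down had a read in 14440 genes, against 22947 to 23915 in the other libraries. A count of 0 allows a level of up to 0.289 to 0.357 CPM, the value of 3 reads, depending on the library. Of the osteoblast markers, SPARC, COL1A1, ALPL, SPP1 and RUNX2 had reads in every library, SP7 and IBSP were at 0 in all 4, and COL1A2 and BGLAP had at most 3 reads in any. The epithelial genes KRT8, KRT18 and EPCAM had reads in all 4 libraries as well, and MYH7, CKM and CD3E had none. The 10 osteoblast markers summed to 3227 and 1572 TPM in the LC3B and IgG pull-downs, against 3121 and 2669 TPM in their inputs, and the 14 markers of other cells to 3688 and 3004 TPM, against 2345 and 2528 TPM. Of 6 osteoblast markers tested, COL1A1 was higher with LC3B than in its input, RUNX2 higher with LC3B than with IgG, and 1 was lower with IgG than in its input. Of 6 other markers tested, CDH1, RBFOX3 and SNAP25 were lower with IgG than in the input, and these and KRT8 were higher with LC3B than with IgG, by the calls defined below. By the same calls 1.4% of all genes tested were higher with LC3B and 33.6% lower with IgG than in the input. LC3B over IgG called 33.8% of all genes higher. The part of these differences between libraries in the HOX values was not tested.

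Levels between genes are compared per length, in TPM, a share of the library after division by transcript length, rescaled to the genes outside the mitochondrion. The U2OS inputs held a broad set of HOX mRNAs. In the inputs 24 of the 39 genes reached 1 TPM in each library, 30 had a read in both, and only HOXB1, HOXC5 and HOXD4 had none in any of the 4 libraries. HOXB7, a central gene, was first in every library, at 71.5 TPM with LC3B and 93.2 TPM with IgG, against 57.0 TPM in the LC3B input and 64.2 TPM in that of IgG. It alone made up 27.1% and 32.9% of the summed HOX level in the LC3B and IgG pull-downs, and 26.5% and 27.5% in their inputs. HOXC9 was second in every library, at 29.4, 45.3, 20.9 and 24.5 TPM in the same order. The next places differed between libraries. They were held by HOXB9, HOXA10 and HOXA9 in both inputs (with HOXA10 ahead of HOXB9 in the IgG input), by HOXD11, HOXB9 and HOXD10 in the LC3B pull-down, and by HOXA9, HOXB6 and HOXA4 in the IgG pull-down. The 5 leading genes held 61.1% and 72.7% of the HOX level in the LC3B and IgG pull-downs, and 57.1% and 59.6% in the LC3B and IgG inputs. With 1 library a group, neighbours in this order cannot be separated by a spread. In bulk RNA, fewer cells carrying an mRNA and less of it per cell cannot be told apart.

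**Figure D1:**
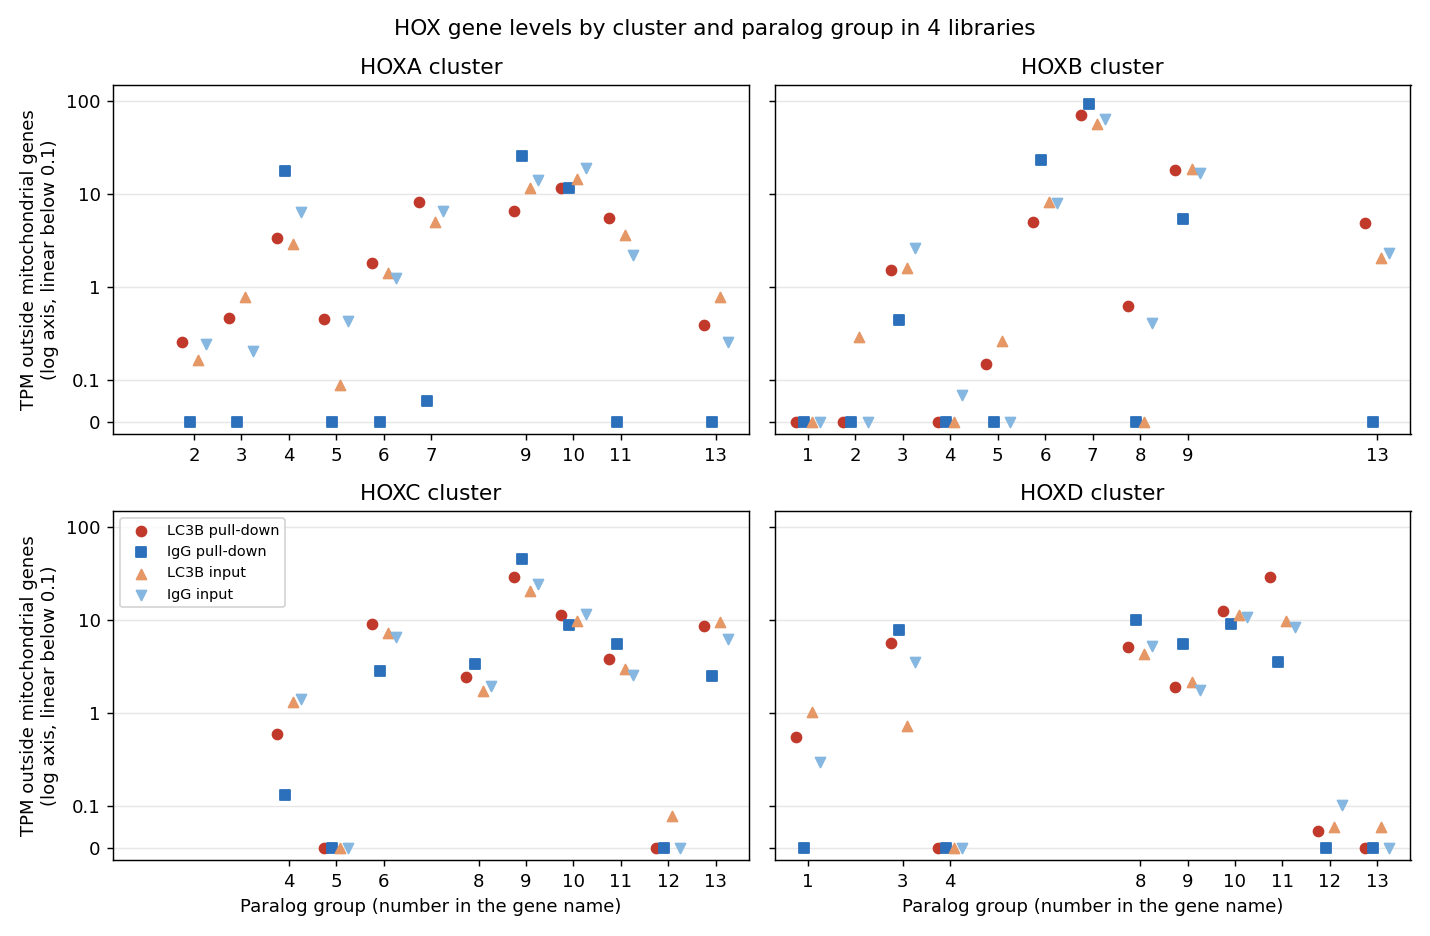
Level of each HOX gene in TPM outside mitochondrial genes (vertical, log axis that is linear below 0.1) against its paralog group (horizontal), 1 panel per cluster and 1 symbol per library (1 library a group, no error bars). HOXB7 is the highest gene in all 4 libraries, the 4 leading input genes of the posterior groups are HOXC9, HOXB9, HOXA10 and HOXA9, and the squares of the IgG pull-down lie at 0 for 6 of the 10 HOXA genes drawn, whose other libraries all have reads. Of the 39 genes 38 are drawn.

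By position along the clusters, the input level was mostly central and posterior. Posterior genes made up 54.8% and 43.7% of the HOX level in the LC3B and IgG pull-downs, against 55.1% and 52.2% in their inputs. Central genes held 41.2% and 53.4% in the LC3B and IgG pull-downs, and 41.8% and 44.1% in their inputs. By reads in place of TPM, central genes held 45.5% and posterior genes 52.0% in the IgG pull-down, against 35.8% and 60.5% in its input. Which of the central and posterior sets is larger with IgG thus depends on the measure. Anterior genes held 4.0% and 2.92% in the pull-downs and 3.17% and 3.76% in the inputs, in the same order. Within the posterior groups the level fell off at group 12: HOXC12 and HOXD12 had at most 2 reads in any library. HOXD13 and the anterior HOXB2 had at most 1. By cluster, HOXB held the largest share in every library, 38.7% and 43.3% in the LC3B and IgG pull-downs and 41.0% and 40.5% in their inputs. The share of HOXD was 21.0% with LC3B and 12.8% with IgG, against 13.9% in the LC3B input and 13.1% in that of IgG.

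Recovery of single genes was measured as the fold of a gene's CPM in a pull-down over that in its own input, with a 95% interval from the exact conditional binomial distribution (Clopper-Pearson). Since PCR reads without molecular identifiers are not independent molecules, intervals and floors cover counting error only. The call was "higher" for an interval wholly at or above 2, and "lower" for one wholly at or below 0.5. Calls were made for the genes that averaged at least 1 CPM over the 4 libraries, 15431 in all, among them 24 HOX genes, and all 24 averaged at least 1 CPM in the inputs alone. HOXA3 and HOXD1 also averaged over 1 CPM in the inputs but missed that mean over all 4 libraries, with 0 reads in the IgG pull-down. Per the deposited coordinates 22 of the 39 genes overlap another HOX gene on the same strand and 25 overlap a gene on the other strand, and how reads there were assigned is not given in the sources used here.

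In the LC3B pull-down the HOX genes tested had folds between 0.5 and 2 over the input, but for HOXC4 below and HOXB13, HOXD3 and HOXD11 above. The comparison called 2 of 24 HOX genes higher, which is 8.33% beside 1.4% of all genes tested, and 0 lower, beside 4.48% of all genes. The median log2 ratio was 0.23 over the 24 genes and 0 over all 39, beside 0.01 over all genes tested. The 2 genes were HOXD11 and HOXD3. With mitochondrial reads in the totals HOXB13 was called higher as well, 12.5% of the HOX genes tested beside 5.74% of all genes, and 0 were called lower, beside 1.69%.

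HOXD11 (ENSG00000128713, chromosome 2, 176104216 to 176109754, plus strand in hg38) is a posterior gene that patterns the forelimb in the mouse. It had 326 reads with LC3B and 38 with IgG, against 87 in the LC3B input and 72 in that of IgG. The LC3B pull-down stood above the 3 other libraries and the IgG pull-down below them. The fold over the input was 3.09 (2.43 to 3.95) with LC3B and 0.451 (0.296 to 0.678, not called) with IgG, and the LC3B pull-down was 8.12-fold (5.79 to 11.7) above the IgG pull-down. Against both inputs summed the LC3B fold was 3.35. Its 3′ part overlaps HOXD10 on the same strand, and HOXD10, with 131 and 65 reads in the LC3B and IgG pull-downs and 87 and 82 in their inputs, had an LC3B fold of 1.24 (0.938 to 1.64).

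HOXD3 (ENSG00000128652, chromosome 2, 176136612 to 176173102, plus strand) is an anterior gene of the same cluster. It had 51 reads with LC3B and 68 with IgG, against 5 in the LC3B input and 25 in that of IgG. The inputs themselves differed, with a fold of 0.197 (0.0588 to 0.523) of the LC3B input over the IgG input, which was not called. The LC3B fold was 8.40 (3.37 to 27.0) over its own input but 2.78 (1.74 to 4.52) over both inputs summed and 1.65 over the IgG input, and the call is lost in both. The call on HOXD3 therefore rests on 5 reads of 1 library, and the gene overlaps antisense genes, HAGLR and HOXD-AS2 among them.

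HOXB13, a posterior gene that lies apart from the rest of HOXB and is known from prostate, had the highest LC3B fold of the genes tested but not called. It had 168 reads with LC3B and 0 with IgG, against 54 in the LC3B input and 61 in that of IgG. Its LC3B fold of 2.56 (1.87 to 3.55) missed the lower bound. Of the abundant genes, HOXB7 had 871 and 1060 reads in the LC3B and IgG pull-downs and 533 and 549 in their inputs, and an LC3B fold of 1.35 (1.21 to 1.5). HOXB9, with 456 and 131 reads in the pull-downs and 355 and 320 in the inputs, had 1.06 (0.919 to 1.22). HOXA10, which is needed for uterine and limb development in the mouse, had 235 and 225 reads in the pull-downs, 238 and 266 in the inputs, and an LC3B fold of 0.813 (0.676 to 0.978). These 3 differed from their input by less than 1.5-fold in the LC3B pull-down, while HOXC9 had an LC3B fold of 1.65 (1.38 to 1.96).

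**Figure D2:**
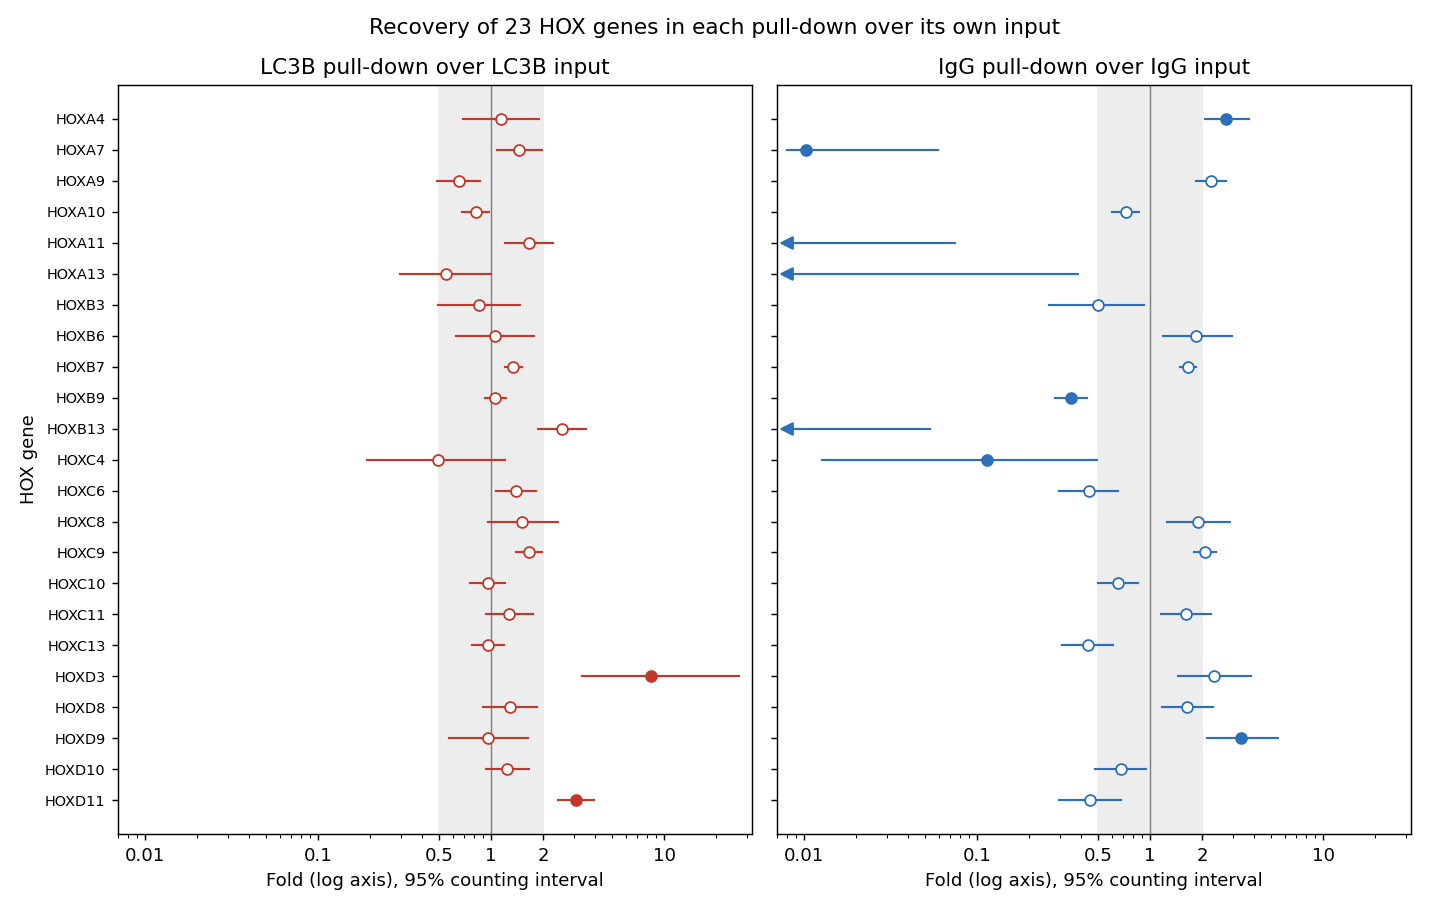
Folds over the own input of the LC3B pull-down (left) and the IgG pull-down (right) for 23 of the 24 HOX genes tested, on a log axis, with 95% counting intervals that do not cover spread between cultures. Filled circles are called genes, arrows mark genes with 0 reads in the IgG pull-down (all 3 called lower), and the grey band runs from 0.5 to 2. HOXD3 and HOXD11 are the filled circles on the left, while on the right 6 of the genes drawn are called lower and 2 higher.

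The IgG pull-down departed from its input far more often, in HOX genes as in all genes. Over the input 7 of the 24 HOX genes were called lower, 29.2% beside 33.6% of all genes tested, and 2 higher, 8.33% beside 9.69%. Both shares are near the background. Against both inputs summed 8 were called lower, 33.3% beside 35.1% of all genes, and 5 higher, 20.8% beside 10.2%, adding HOXC13 as lower and HOXA9, HOXC9 and HOXD3 as higher. Against the LC3B input 8 were called lower, 33.3% beside 34.3%, and 4 higher, 16.7% beside 9.2%. With mitochondrial reads in the totals 5 were called lower, 20.8% beside 29.7%, and 4 higher, 16.7% beside 15.3%. The median log2 ratio was -0.56 over the 24 genes and -0.46 over all 39, beside -0.43 over all genes tested.

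Of the 7 genes lower with IgG, 4 had no read there, among them HOXA11, HOXA13 and HOXB13. HOXA11, which acts in limb, kidney and uterus, had 122 and 0 reads in the LC3B and IgG pull-downs, against 61 and 44 in their inputs. HOXA13, a gene of the hand, foot and genital tract, had 20 and 0 reads in the pull-downs, against 30 and 10 in the inputs. With HOXB13 above, these were, with IgG, at least 17.1-fold (HOXA11), 3.90-fold (HOXA13) and 23.8-fold (HOXB13) lower than in the input, computed with 3 reads in place of 0 and with no counting error of the input. The upper ends of the 95% intervals of their folds were 0.0748 (HOXA11), 0.382 (HOXA13) and 0.0533 (HOXB13). HOXA7 had 129 and 1 reads in the pull-downs, against 73 and 83 in the inputs, a fold of 0.0103 (0.000258 to 0.0590) with IgG. HOXB9 had a fold of 0.350 (0.284 to 0.430) with IgG. HOXC4, with 9 and 2 reads in the pull-downs and 15 in each input, had 0.114 (0.0127 to 0.490), a call that is lost with trimmed-mean (TMM) or median-of-ratios scaling. With mitochondrial reads in the totals the calls on HOXB9 and HOXC4 are lost. All 7 were read in the LC3B pull-down, and their LC3B folds ran from 0.494 (HOXC4) to 2.56 (HOXB13) with no call.

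The 2 genes higher with IgG were HOXA4 and HOXD9. HOXA4, a central gene, had 40 and 206 reads in the LC3B and IgG pull-downs, against 29 and 64 in their inputs. Its IgG fold was 2.75 (2.07 to 3.70), and its LC3B fold 1.14 (0.687 to 1.90), or 0.702 over both inputs summed. HOXD9 had 34 and 94 reads in the pull-downs, against 29 and 24 in the inputs. The IgG fold was 3.35 (2.12 to 5.49), and against the LC3B input this call is lost. Both genes stood higher in the IgG pull-down than in the 3 other libraries.

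Neighbouring genes of a cluster had IgG folds on opposite sides of 1. HOXA9, a posterior gene known from haematopoiesis and leukaemia, had 93 and 369 reads in the LC3B and IgG pull-downs, against 118 and 140 in their inputs. It lies next to HOXA7, which had 1 read with IgG, and overlaps HOXA10, whose IgG fold was 0.724 (0.603 to 0.867). The IgG fold of HOXA9 was 2.25 (1.85 to 2.76, not called) and its LC3B fold 0.649 (0.489 to 0.859). In HOXC, HOXC9 had 396 and 597 reads in the pull-downs and 198 and 246 in the inputs, with an IgG fold of 2.08 (1.79 to 2.42, not called), while HOXC6, which spans it on the same strand, had 156 and 42 reads in the pull-downs and 92 and 81 in the inputs, with 0.444 (0.298 to 0.652, not called). HOXC13, a gene of hair and nail, had 196 and 55 reads in the pull-downs and 168 and 108 in the inputs. Its IgG fold was 0.436 (0.309 to 0.608, not called) and its LC3B fold 0.961 (0.778 to 1.19).

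Set directly against each other, the LC3B pull-down was called higher than the IgG pull-down for 9 of the 24 HOX genes, 37.5% beside 33.8% of all genes tested, and lower for 2, 8.33% beside 9.45%. The shares are again close to the background. The genes called higher included HOXA7, HOXA11, HOXA13, HOXB9, HOXB13, HOXC6, HOXC13 and HOXD11, and 6 of the 9 are posterior, as are 13 of the 24 tested. For genes with no read with IgG the fold was at least 38.5 (HOXA11), 6.31 (HOXA13) and 53.0 (HOXB13) by the same substitution, with lower ends of the 95% intervals at 30.8, 4.67 and 42.7. For HOXA7 it was 122 with an interval from 21.5 that rests on 1 read. HOXB9, HOXC13 and HOXC6 were close to one another, at 3.30 (2.71 to 4.03), 3.37 (2.49 to 4.64) and 3.52 (2.49 to 5.07). HOXA4, at 0.184 (0.128 to 0.259), and HOXA9, at 0.239 (0.188 to 0.300), were lower. HOXD11 was the only gene of the 9 that was also called higher over the LC3B input. This comparison shares its libraries with the comparisons over the inputs, so it is no separate evidence for them.

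The other genes above 1 CPM in the inputs had no call in any comparison. HOXC10 had 161 and 104 reads in the LC3B and IgG pull-downs and 139 and 136 in their inputs. HOXC11 had 105 in each pull-down and 68 and 56 in the inputs, and HOXC8 had 57 and 77 in the pull-downs and 31 and 35 in the inputs. HOXD8 had 81 and 109 in the pull-downs and 52 and 57 in the inputs. These genes lay within 2-fold of their input in both pull-downs. HOXB6 had 37 and 65 reads in the pull-downs and 29 and 30 in the inputs, and HOXB3, which overlaps it, 30 and 18 in the pull-downs and 29 and 31 in the inputs. In deposited TPM the values of both moved by over 1.5 times: the LC3B fold of HOXB6 was 0.602, against 1.05 by counts, and the IgG fold of HOXB3 was 0.168, against 0.497 by counts. HOXA3 had 15 and 0 in the pull-downs and 16 and 5 in the inputs, and HOXD1 10 and 0 in the pull-downs and 14 and 4 in the inputs. The remaining 10 genes with a read anywhere, HOXA2, HOXA5, HOXA6, HOXB2, HOXB4, HOXB5, HOXB8, HOXC12, HOXD12 and HOXD13, were at 0 to 12 reads in the LC3B pull-down, 0 in the IgG pull-down and 0 to 7 in the inputs. They lay below the level for a call. Without that filter LC3B over IgG would call 12 genes higher in place of 9, adding HOXA3, HOXA6 and HOXD1, and with the filter on the inputs alone 11, adding HOXA3 and HOXD1. Without a filter the background is 60639 genes, so the 33.8% over the 15431 genes tested does not stand beside these counts. The shares of all genes under these settings are not reported here.

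Whether a HOX gene was read at all in the IgG pull-down went with its input level, as for other genes. Over the 39 genes, 12 were read with LC3B but had 0 reads with IgG, and 0 genes the reverse. Of all genes, 23915 had a read with LC3B and 14440 with IgG. How many of all genes were read in only one of the pull-downs is not reported here. The counts of 12 and 0 therefore have no background beside them. Above 0 and below 1 CPM in the inputs, 10 of 10 HOX genes were at 0 with IgG, beside 82.9% of all genes. With LC3B it was 4 of 10, beside 38.0%. Among the 24 genes tested, 0 were without a read in the LC3B pull-down, beside 0.402% of all genes tested, and 4 in the IgG pull-down, which is 16.7% beside 19.7%. Between 1 and 3 CPM in the inputs 3 of 5 HOX genes were at 0 with IgG, beside 56.3% of all genes at that level. Between 3 and 10 CPM it was 3 of 13, beside 36.7%, and between 10 and 30 CPM 0 of 6, beside 16.5%. With 2 to 13 HOX genes at each level from 1 CPM up, these shares are a description only.

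**Figure D3:**
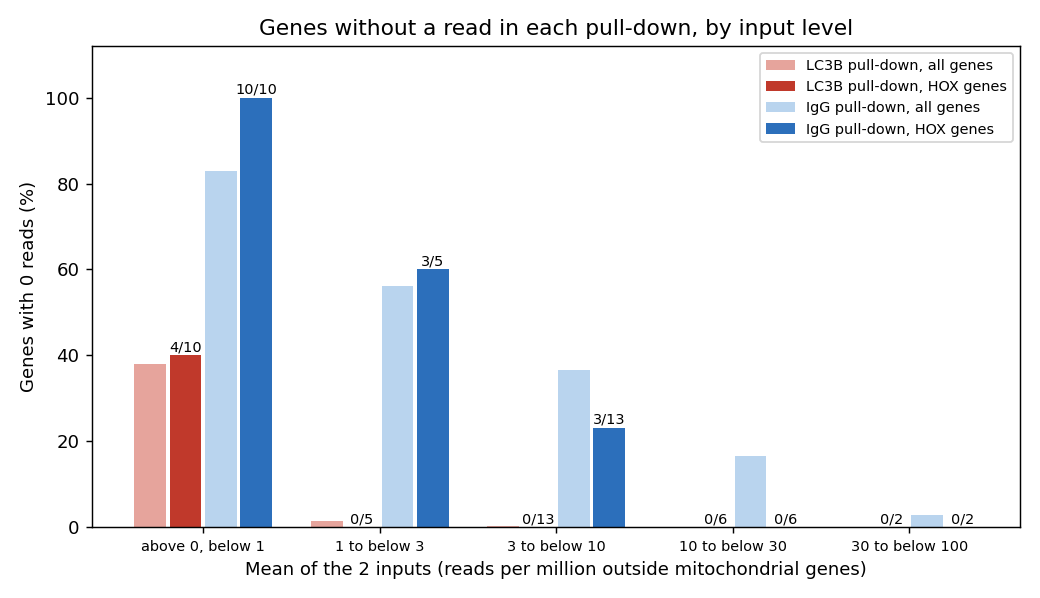
Percent of genes with 0 reads in the LC3B pull-down (red) and the IgG pull-down (blue), by the mean level of the 2 inputs in CPM, for all genes (pale bars) and HOX genes (dark bars, with the number at 0 over the number in the bin). In the IgG pull-down 3 of 13 HOX genes between 3 and 10 CPM are at 0, beside 36.7% of all genes, and above 10 CPM no HOX gene is.

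Summed over all 39 genes, HOX reads made up 385 CPM with LC3B and 349 CPM with IgG, against 305 CPM in the LC3B input and 308 CPM in that of IgG. The LC3B pull-down was 1.26-fold (1.2 to 1.33) above its input and the IgG pull-down 1.13-fold (1.08 to 1.19) above its own, and without HOXB7 these were 1.24 (1.18 to 1.32) and 0.993 (0.936 to 1.05). By cluster, HOXD had the highest LC3B fold: its reads summed to 61.1 CPM there and 38.1 CPM in the IgG pull-down, against 32.3 and 31.7 CPM in their inputs. The LC3B fold was 1.89 (1.64 to 2.19) for HOXD, 1.28 (1.19 to 1.39) for HOXB, 1.25 (1.13 to 1.37) for HOXC and 0.971 (0.870 to 1.08) for HOXA. Without HOXD11 the HOXD fold was 1.34 (1.12 to 1.62), and without HOXD3 as well 1.15 (0.948 to 1.40). The IgG folds of the clusters were 1.2 (1.03 to 1.41) for HOXD, 1.10 (1.01 to 1.19) for HOXB, 1.24 (1.12 to 1.37) for HOXC and 1.05 (0.942 to 1.16) for HOXA. These sums are dominated by their most abundant genes. HOXB7 held 1060 of the 1274 HOXB reads in the IgG pull-down and 549 of the 993 in its input. Of the other HOXB genes tested, HOXB6 had an IgG fold above 1 and HOXB3, HOXB9 and HOXB13 folds below 1. The HOXB sum without HOXB7 is not reported here.

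By position, central genes summed to 135 CPM in the LC3B pull-down and 159 CPM in the IgG pull-down, against 101 and 110 CPM in their inputs. Posterior genes summed to 236 CPM with LC3B and 181 CPM with IgG, against 192 and 186 CPM in the inputs. The IgG fold was 1.44 (1.33 to 1.56) for central and 0.973 (0.909 to 1.04) for posterior genes, and the LC3B fold 1.33 (1.23 to 1.45) and 1.23 (1.15 to 1.31). HOXB7 alone held 1060 of the 1562 central reads in the IgG pull-down and 549 of the 928 in its input. Its own IgG fold was 1.65 (1.49 to 1.83). The central fold without HOXB7 is not reported here, so the central value is largely that of HOXB7. Anterior genes other than HOXD3 summed to 100 reads with LC3B and 18 with IgG, against 96 and 71 in the inputs, and all 18 of the IgG reads were those of HOXB3. Among paralog groups, group 11 (HOXA11, HOXC11 and HOXD11) had an LC3B fold of 2.11 (1.80 to 2.48) and an IgG fold of 0.711 (0.566 to 0.893). Without HOXD11 the LC3B fold of the group was 1.45 (1.16 to 1.81). Group 13 had an LC3B fold of 1.25 (1.06 to 1.47) and an IgG fold of 0.263 (0.191 to 0.357).

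**Figure D4:**
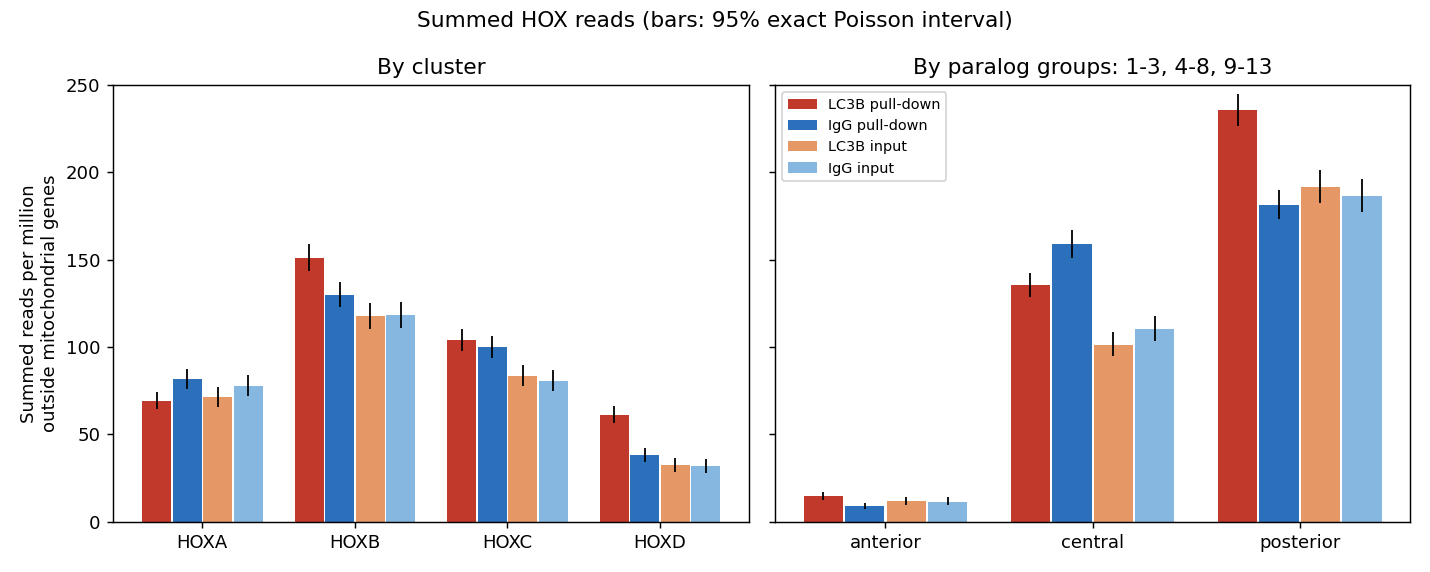
Summed reads of HOX genes in CPM, by cluster (left) and by position (right), in the LC3B pull-down, IgG pull-down, LC3B input and IgG input (left to right in each set), with exact Poisson 95% intervals. Between libraries, HOXD reads are highest in the LC3B pull-down, at 61.1 CPM, and central reads in the IgG pull-down, at 159 CPM. Within each of these pull-downs other sets stand higher.

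The 2 inputs were compared in the same way. No HOX gene was called between them, beside 0.136% of all genes called higher and 0.156% called lower, and the median log2 ratio was -0.04 over the 24 genes tested and 0 over all 39, beside 0.02 over all genes tested. The counting interval excluded 1 for 5 of the 24 HOX genes tested, 20.8% beside 21.6% of all genes tested, a share near the background. They were HOXC9, HOXD3 (given above), HOXA13 at 2.95 (1.40 to 6.77), HOXA4 at 0.446 (0.277 to 0.702) and HOXC13 at 1.53 (1.19 to 1.97), all LC3B input over IgG input.

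Non-coding RNAs of the clusters were measured in the same way. Of 19 listed, 18 were matched in the tables and 10 were tested. LC3B over its input called none of the 10, beside 1.4% of all genes tested called higher and 4.48% called lower. IgG over its input called 2 of the 10 higher and 3 lower, beside 9.69% and 33.6% of all genes. LC3B over IgG called 4 of the 10 higher and 0 lower, beside 33.8% and 9.45%. HAGLR, an antisense RNA of the HOXD cluster, had 92 and 0 reads in the LC3B and IgG pull-downs, against 94 in each input, and was at least 29.0-fold higher with LC3B than with IgG. HOXA-AS3 had 99 and 1 reads in the pull-downs, against 52 and 35 in the inputs, and HOXA11-AS 42 and 0, against 26 and 17. HOXC-AS1, the last of the 4, had 22 and 2 reads in the pull-downs, against 8 and 12 in the inputs. HOXA11 and HOXA11-AS, which overlap on opposite strands, were thus both at 0 with IgG, and without a stated strand setting their reads cannot be told apart. The same limit holds for HOXA7 with HOXA-AS3 and for HOXD9 with HOXD-AS2, which also overlap on opposite strands. HOXD-AS2, with 122 and 184 reads in the pull-downs and 54 and 56 in the inputs, and HOXC13-AS, with 50 and 67 against 17 and 10, were called higher with IgG. HOTAIR, a HOXC RNA studied for binding to Polycomb proteins, had 154 and 309 reads in the pull-downs, against 97 and 109 in the inputs. HOTAIRM1 of HOXA had 230 and 243 reads in the pull-downs and 159 and 138 in the inputs, and neither it nor HOXA10-AS (97 and 125, against 87 and 98) was called.

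Among the cofactors of HOX proteins, the TALE homeodomain genes of the PBX, MEIS and PKNOX families, 8 of 9 were tested. None was called over the LC3B input. Of all genes tested, 33.6% were lower with IgG than in its input. LC3B over IgG called 33.8% of all genes higher and 9.45% lower. Over the IgG input 3 were lower, PBX3, MEIS2 and PBX4, each with 0 reads in the IgG pull-down, and 158, 52 and 16 reads with LC3B. LC3B over IgG called these 3 and MEIS3 higher, and 1, PKNOX1 (236 and 541 reads in the LC3B and IgG pull-downs, 232 and 205 in the inputs), lower. MEIS3 had the highest input level of the list, PKNOX1 the next, and MEIS1 and PBX2, also among the 5 highest, were not called.

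Of the Polycomb genes, which keep HOX genes silent, 19 were tested. Of all genes tested, 4.48% were lower with LC3B and 33.6% lower with IgG than in the input. LC3B over IgG called 33.8% of all genes higher. SUZ12, a subunit of the complex that methylates histone H3, was the 1 gene lower in the LC3B pull-down than in its input (128 reads there and 345 in the input). With IgG 6 were lower than in the input, among them EZH1, JARID2, PCGF2, PHC3 and RNF2, and 4, among them EZH1, JARID2 and PCGF2, were higher with LC3B than with IgG. RBBP4, RBBP7, BMI1, PHC1 and EED had the highest input levels and no call. Of 13 trithorax genes, which keep HOX genes active, 0 were called over the LC3B input. With IgG 8 were lower, KDM6A, KDM6B, KMT2B, KMT2C, KMT2D, PSIP1, RBBP5 and WDR5, and 5 of these, KDM6A, KDM6B, KMT2B, KMT2C and RBBP5, were higher with LC3B than with IgG. DPY30, ASH2L and MEN1, also among the 5 highest in the inputs, had no call.

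Of 139 other homeobox genes 49 were tested. In the LC3B pull-down 0 were higher and 5 lower than in its input, ONECUT1, PROX1, TGIF2LX, ZEB1 and ZHX1. In the IgG pull-down 2 were higher, LHX9 and SHOX2, and 27 lower, and 19 of the 49 had 0 reads there. With LC3B over IgG 25 were higher and 2 lower, SHOX2 and ZEB1. Lower with IgG and higher with LC3B than with IgG were, among others, IRX4, ISL2, LHX4, MSX2, NKX2-5, PITX1, POU2F1, POU2F2, POU3F3, SIX2, SIX4, SIX5, TGIF2, TGIF2LX, TLX1, TLX2, ZEB2, ZFHX2 and ZHX3. Also lower with IgG were ONECUT1, ONECUT2, PROX1 and ZHX1, and the other genes higher with LC3B than with IgG were CUX1, EN2 and LBX2. TGIF1, ZHX1, HMBOX1, CUX1 and PRRX2 had the highest input levels. No gene of the ParaHox and cluster-neighbour list reached the level for a test. Beside these counts, LC3B over its input called 1.4% of all genes tested higher and 4.48% lower. IgG over its input called 9.69% higher and 33.6% lower, and 19.7% had 0 reads with IgG. LC3B over IgG called 33.8% higher and 9.45% lower.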

How the data were processed

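Polyadenylated RNA of 4 nRIP-seq libraries was made with a native nuclear RIP kit and the SMART-Seq v4 low-input kit, per the labels' protocols. Per the submitters' processing notes, cutadapt 2.8, STAR 2.7.1a and build hg38 were used. Which counter, strand setting and annotation release were used is not given in the sources used here. The deposited counts are raw reads per gene, per the file headers, with digits grouped by commas, which were removed. The deposited TPM values are scaled per length and library by the authors, per the file headers. They were rescaled to the sum outside mitochondrial genes.

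Counts were divided by each library's total without mitochondrial genes. Folds have exact conditional binomial (Clopper-Pearson) 95% intervals, summed reads exact Poisson intervals, and log2 ratios a pseudocount of 0.5 CPM. Genes averaging at least 1 CPM over the 4 libraries were tested. With 0 reads in 1 library a fold is a bound with 3 reads there. Values in every library are given for members averaging at least 1 CPM in the inputs. Lists were cluster non-coding RNAs, TALE cofactors, ParaHox and neighbours, Polycomb, trithorax, other homeobox genes, and osteoblast and other-cell markers. Of the lists, called genes and the 5 highest in the inputs are named, but for a few genes, 1 of them a HOX gene, that are not reported here. Members, lists and alternatives were chosen with earlier results of these data known. Alternatives were other totals, TMM and median-of-ratios scaling, other filters, bounds and pseudocounts, deposited TPM and the inputs summed or exchanged. The interval code was tested on simulated data. Python 3.11.15, numpy 2.4.6, pandas 2.3.3, scipy 1.17.1 and matplotlib 3.10.9 were used.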

Additional observations from a re-analysis of the deposited data

Results flagged for a closer look

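For 6 HOX genes the intervals of the fold over the input lay on opposite sides of 1 in the 2 pull-downs. All 6 are among the 24 genes tested, of which they are 25%, beside 18.9% of all genes tested. The difference between the pull-downs was not tested, since each has 1 library. For 5 of them the LC3B fold lay above 1 and the IgG fold below, 20.8% of the HOX genes tested beside 12.3% of all genes. HOXA7 had 1.45 with LC3B and 0.0103 with IgG, and HOXC6 1.40 with LC3B and 0.444 with IgG. HOXD11 had 3.09 with LC3B and 0.451 with IgG. HOXA11 had 1.65 and HOXB13 2.56 with LC3B, and both had 0 reads with IgG. HOXA9 went the other way, with 0.649 with LC3B and 2.25 with IgG, 4.17% of the HOX genes tested beside 6.57% of all genes.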

How the results depend on the processing

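With 1 library per group, none could be left out. No paired analysis was possible because each group holds 1 library. Folds were followed under the alternatives only where both libraries had reads, so calls on genes with 0 reads in a library are left out. Among these folds no called one changed direction, but of 92 folds of single genes 13, none of them called, crossed 1. No median changed sign, but without the filter the medians of LC3B over its input and of the inputs were 0. Counts of called HOX genes moved most. LC3B over its input called 2 genes as reported. By point folds of 2 on counts it called 4, 3 higher (12.5% beside 7.94% of all genes) and 1 lower (4.17% beside 11.02%). By deposited TPM it called 4 as well, 3 higher (12.5% beside 7.36%) and 1 lower (4.17% beside 13.98%). With a filter of 5 CPM it called 1 (HOXD11) higher, 5.88% beside 1.39%, and 0 lower, beside 5.32%. Against both inputs summed it called 1 (HOXD11) higher, 4.17% beside 1.76%, and 0 lower, beside 4.59%. Against the other input it called 1 (HOXD11) higher, 4.17% beside 1.85%, and 0 lower, beside 4.52%. With bounds of 4 and 0.25 it called 0, beside 0.0842% higher and 0.227% lower. IgG over its input called 9 as reported. By point folds it called 16 (5 higher, 11 lower), 20.8% higher beside 14.9% of all genes and 45.8% lower beside 39.4%. By TPM it called 16 (5 higher, 11 lower), 20.8% beside 14.2% and 45.8% beside 39.7%. With a filter of 5 CPM it called 5, 5.88% higher beside 9.49% and 23.5% lower beside 26.1%. With bounds of 4 and 0.25 it called 4, all lower, 16.7% beside 23.4%, and 0 higher, beside 2.37%. LC3B over IgG called 11 as reported and 6 with those bounds. The inputs called 0 as reported, 3 by point folds and 3 by TPM. For LC3B over IgG and for the inputs, the shares of all genes under the alternatives are not reported here. With mitochondrial genes in the totals the median log2 ratio of all genes tested was 0.32 (LC3B) and -0.10 (IgG) over the inputs, against 0.01 and -0.43. The HOX median with LC3B then was 0.52, the IgG calls were 4 higher and 5 lower, against 2 and 7, and the summed HOX fold over the inputs was 1.58 with LC3B and 1.44 with IgG. With median-of-ratios scaling the median of all genes tested for LC3B over IgG was 0.30, against 0.41. In TPM the summed fold was 1.22 with IgG over its input, 0.93 for LC3B over IgG and 0.92 between the inputs. Without HOXB7 it was 0.99 for IgG over its input and 1.25 for LC3B over IgG. For both TPM values under 1 and for IgG without HOXB7, the cause was not tested. The filter on the inputs alone, the exchanged inputs and leaving out HOXD11, HOXD3 or both were chosen after seeing the data. By counts in place of TPM the HOXD share was 15.9% and 10.9% in the LC3B and IgG pull-downs and 10.6% and 10.3% in their inputs. Depth limits genes under about 3 reads per library.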
